A study of Mus musculus with 8 samples.

Results

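UDP-glucuronosyltransferases (UGTs) and cytosolic sulfotransferases (SULTs) were described across the RNA-seq of primary mouse hepatocytes. All protein-coding genes whose GRCm38 symbol starts with Ugt1a, Ugt2a, Ugt2b, Ugt3a or Sult and a digit were taken, which gave 42 genes of 21951 protein-coding genes and 55450 genes in all. They comprised 9 Ugt1a, 3 Ugt2a, 7 Ugt2b, 2 Ugt3a, 6 Sult1, 9 Sult2 and 2 Sult3 genes and 4 genes from Sult4 to Sult7. Of these, 24 (16 UGTs and 8 SULTs) had at least 80 reads over the 8 libraries and were tested among 15468 genes. The other 18 fell under this minimum, and 6 of them had no read in any library.

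Hepatocytes came from C57BL/6 mice at 8 weeks of age. The 4 metal-treated libraries were from liver-specific knockout (LSKO) cells of genotype Alb-cre(+/+);Slc39a8(F/F), given 2 µM sodium selenite, ferrous chloride, zinc chloride or manganese chloride for 24 h, with 1 library each. Untreated LSKO cells gave 2 libraries, and untreated Slc39a8(F/F) cells without Cre, called wild type (WT), gave 2. All cells were kept in serum-free medium with dexamethasone. The albumin promoter drives Cre in hepatocytes, and Slc39a8 encodes ZIP8, a transporter of metal ions and selenite. The labels do not say whether replicate libraries came from separate animals, so p-values measure only the spread between these libraries.

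UGTs sit in the membrane of the endoplasmic reticulum and join a sugar, most often glucuronic acid from UDP-glucuronate, to bilirubin, steroids, bile acids and drugs. SULTs are cytosolic and transfer sulfate from 3′-phosphoadenosine-5′-phosphosulfate (PAPS) to phenols, catecholamines, steroids and bile acids. Both make their substrates more soluble, so that they leave the liver in bile or through the kidney, and hepatocytes are a main site of both.

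Reads in genes numbered 19943899 to 27731054 per library. Slc39a8 was at 1.48 to 3.18 CPM (counts per 1000000 reads in genes, TMM-normalized) in the 4 metal libraries, at 8.15 and 1.88 CPM in the untreated LSKO libraries and at 12.7 and 15.5 CPM in WT libraries, so LSKO replicate 1 kept more of the transcript than replicate 2. The manganese library stood apart in its counting, with 72.2% of its reads in genes and 4.48% in no feature. In the other libraries these shares were 39.3% to 42.1% and 42.3% to 45.6%. Reads dropped for a poor mapping score also differed. They came to 0 in LSKO replicate 1, 0 in LSKO replicate 2 and 62 with manganese. WT libraries had 680199 and 597226, iron 595338, selenite 592678 and zinc 639398. Untreated LSKO libraries are the control for each metal and are compared with WT libraries. The part of the dropped reads in those comparisons was not tested. Genes with over 99% of their exon bases under an exon of the opposite strand had a median log2 fold change of -9.62 in the manganese library over untreated LSKO (173 genes), and genes with no such overlap a median of 0.07 (9900 genes). The 7 hepatocyte markers (Alb, Apoa1, Ttr, Cps1, Cyp2e1, Hnf4a and Serpina1a) were present in all libraries, and their summed level was 48343 CPM with selenite, 29926 with iron, 35092 with zinc, 41321 with manganese, 27959 and 35558 in untreated LSKO and 20160 and 19137 in WT cells. None of the 7 was at 0 in any library. Fewer cells of a type and less RNA per cell cannot be told apart in these bulk libraries.

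Expression was concentrated in a few members. Per kilobase of counted exon, Ugt2b36 averaged 138 CPM, Ugt2b34 90.0, Ugt2b5 68.6, Ugt2b35 68.5 and Ugt1a1 32.6 CPM over the 8 libraries. Among SULTs the highest levels on the same scale were those of Sult1a1 at 23.1 CPM and Sult1d1 at 20.6 CPM. Ugt2b34, Ugt2b35, Ugt2b36 and Ugt2b5 together held 91.2% of all UGT reads, and Sult1a1 and Sult1d1 held 84.8% of all SULT reads. The UGT share is of reads as counted and leaves out reads in exons shared between Ugt1a genes. Ugt1a genes were counted over 39.4% to 49.7% of their exon bases, and Ugt2b genes over 100%. The averages of Ugt2b5 and Ugt2b35 were near-equal over the 8 libraries together, but the levels of these genes were not near-equal in each library. Their difference was not tested.

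**Figure D1:**
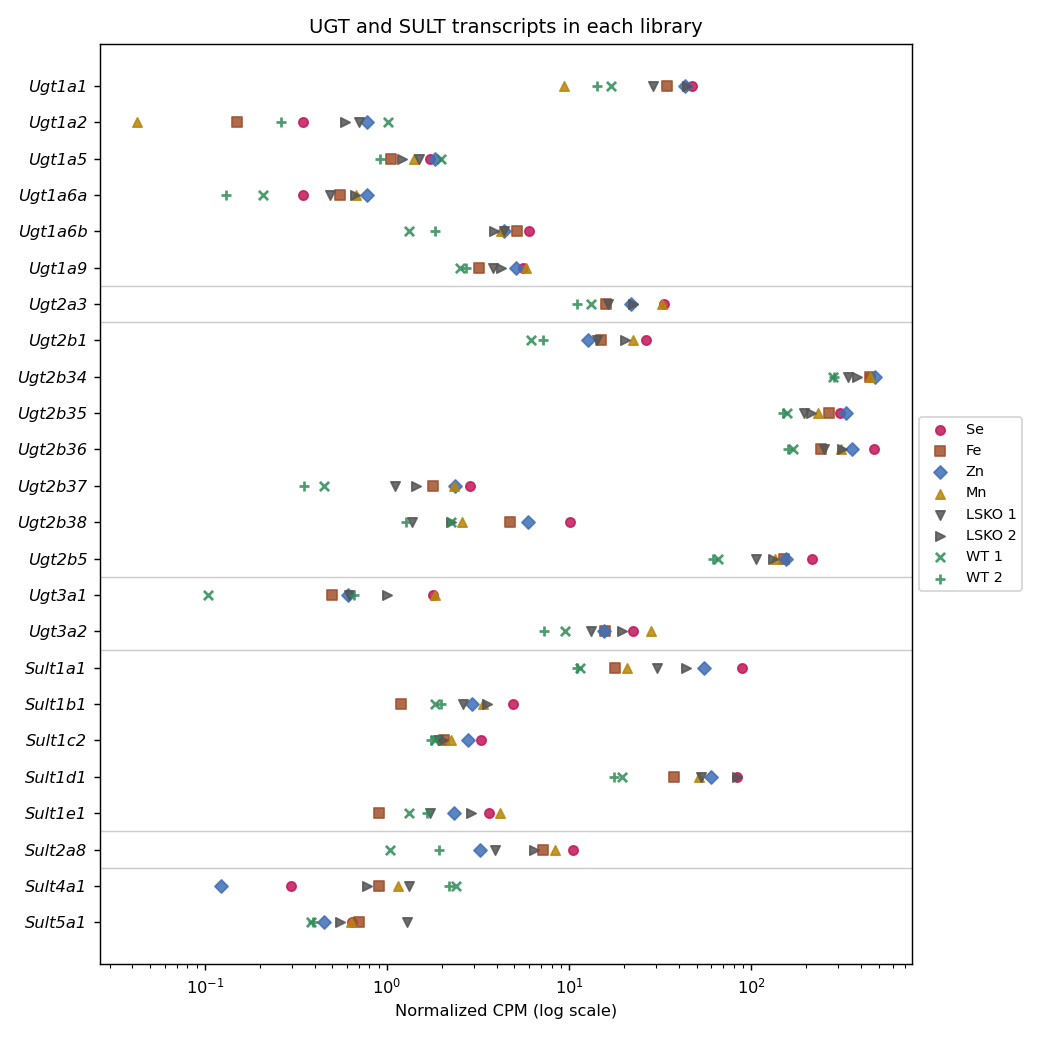
Normalized CPM (x axis, log scale) of the 24 tested UGT and SULT genes (rows) in each of the 8 libraries (points). The Ugt2b34, Ugt2b35, Ugt2b36 and Ugt2b5 rows lie far right, and the WT crosses lie at the left end of most rows.

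Untreated LSKO cells had more of these transcripts than untreated WT cells. Of the 24 tested members, 11 were higher in LSKO than in WT cells and 0 were lower (edgeR's quasi-likelihood test, p adjusted by Benjamini-Hochberg and under 0.05, log2 fold change past 0.5), against 10.4% of all 15468 genes called, 6.74% higher and 3.70% lower. DESeq2 called 10 higher and 0 lower, and 18 members had an unadjusted p under 0.05 by edgeR. The members' median log2 fold change was 0.84, against 0.00 for all tested genes. Both LSKO libraries lay above both WT libraries for 19 members, below them for 1 (Sult4a1) and overlapped them for 4, while 31.8% of all tested genes had both LSKO libraries above both WT libraries. Leaving out either WT replicate gave fewer calls, in fits with 1 WT library.

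The 7 hepatocyte markers moved the same way, with all 7 higher in LSKO than in WT cells and a median log2 fold change of 1.02, and their part in the members' difference was not tested. Per 1000 CPM of summed markers, UGT transcripts made 34.9 and 32.5 CPM in LSKO libraries and 36.1 and 36.7 CPM in WT libraries. SULT transcripts made 3.46 and 4.04 CPM per 1000 marker CPM in LSKO libraries and 2.03 and 2.07 CPM in WT libraries. Alb made 88.6% to 92.5% of the marker sum, so these values are close to ratios to Alb, whose log2 fold change between LSKO and WT cells was 0.64. Those of the other 6 markers ran between 0.52 (Serpina1a) and 2.69 (Cps1). The LSKO pair itself was spread, since 19 of the 24 members were higher in LSKO replicate 2 than in replicate 1, with a median log2 difference of 0.37.

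Selenite gave the most calls among the 4 metals. Over untreated LSKO cells 9 members were higher and 0 lower (edgeR; 17.6% of all genes called, 7.89% higher and 9.67% lower), DESeq2 called 6 higher and 0 lower, and 13 members had an unadjusted p under 0.05. The members' median log2 fold change was 0.60, against -0.01 for all genes. Of the 9, 6 were Ugt2b genes. The hepatocyte markers moved with them, as 4 of 7 were higher with a median log2 fold change of 0.61. Per 1000 CPM of summed markers, UGT transcripts made 33.1 CPM with selenite, against 34.9 and 32.5 CPM in untreated LSKO libraries. SULT transcripts made 4.05 CPM with selenite, against 3.46 and 4.04 CPM. The part of the hepatocyte markers was not tested. Of other cell types, 2 of 5 endothelial and 2 of 5 stellate cell markers were lower with selenite, and 2 of 5 tested Kupffer cell and 1 of 3 tested bile duct markers were higher, which was not tested for its part either. Over all genes, 33.1% of the variance of log2 fold changes between selenite and LSKO cells followed transcript length and GC content. With a correction for both, 2 members kept their call (Ugt2b38 and Sult1a1; 8.96% of all genes called). Leaving out LSKO replicate 1 gave fewer calls and leaving out LSKO replicate 2 gave more, in fits with 1 untreated LSKO library.

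The other metals gave fewer calls. With iron 1 member was higher and 3 lower (8.70% of all genes called, 3.80% higher and 4.89% lower), with zinc 2 were higher and 1 lower (4.45%, 2.90% higher and 1.55% lower), and with manganese 2 were higher and 2 lower (17.2%, 2.09% higher and 15.1% lower). Median log2 fold changes of the members were -0.21 with iron, 0.25 with zinc and 0.19 with manganese. All 4 metals were set against the same LSKO libraries, which also stand in the LSKO to WT comparison. Against the WT libraries the metal-treated LSKO cells had more members called, 19 with selenite (26.7% of all genes called), 13 with iron (10.6%), 15 with zinc (9.70%) and 18 with manganese (28.5%).

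Selenite was also set directly against the mean of the iron and zinc libraries, which leaves untreated LSKO cells out of the contrast. There 8 members were higher and 0 lower (edgeR; 15.9% of all genes called, 7.53% higher and 8.35% lower), DESeq2 called 4 higher and 0 lower, and 12 had an unadjusted p under 0.05. Of the 5 tested Sult1 genes, 4 were called, with a median log2 fold change of 1.32, and of the 7 Ugt2b genes 2 were called, with a median of 0.49. The iron and zinc libraries were unlike for Sult1. Over untreated LSKO cells 3 of the 5 Sult1 genes were lower with iron (median -1.06) and 0 were called with zinc (median 0.01). With selenite 1 of the 5 was called over untreated LSKO cells. Hepatocyte markers were higher for 5 of 7 (median 0.59). In this contrast 38.8% of the variance followed length and GC content, and after the correction only Sult1a1 kept its call among the members.

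**Figure D2:**
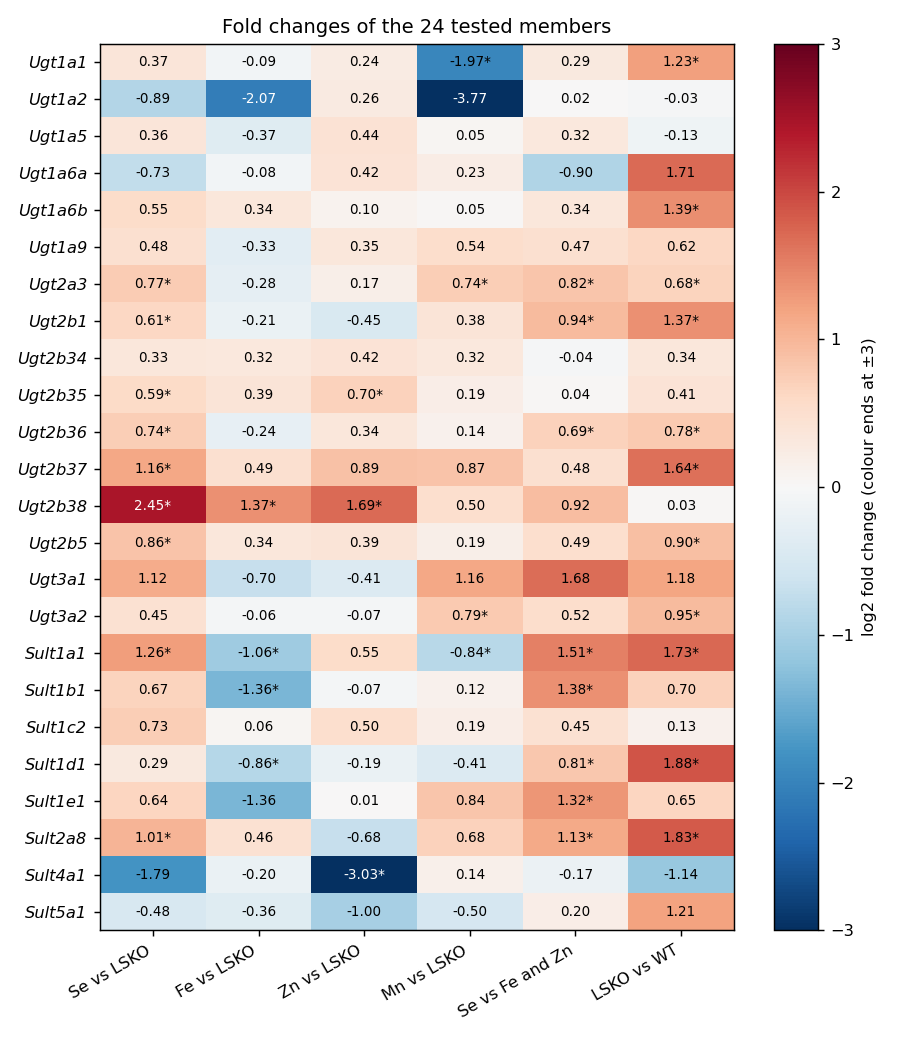
Log2 fold changes of the 24 tested members (rows) in the 6 comparisons (columns), with an asterisk where the adjusted p was under 0.05 and the fold change beyond 0.5. Most cells of the LSKO to WT and selenite columns are red, whereas the iron column holds its 3 lower calls among the Sult1 rows.

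Ugt1a is a single locus on chromosome 1 in which alternative first exons, each with its own promoter, are spliced to 4 shared exons. The shared exons of Ugt1a1 measure 132, 88, 220 and 871 bases (GRCm38, chr1:88215044-88218997), so a read in them cannot be given to 1 of the 9 genes, and the exon before the join tells most members apart. Ugt1a7c has an annotated transcript with the same exon before the join as Ugt1a6a. The joins of 5 members to the shared exons are shown because they are the places where these transcripts differ. The last 40 bases of the exon before the join are in lower case and the first 30 shared bases in capitals (GENCODE M21, plus strand).
Ugt1a1: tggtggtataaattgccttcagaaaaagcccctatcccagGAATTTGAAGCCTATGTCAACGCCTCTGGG
Ugt1a5: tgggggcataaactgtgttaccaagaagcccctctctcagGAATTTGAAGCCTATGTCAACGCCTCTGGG
Ugt1a6a: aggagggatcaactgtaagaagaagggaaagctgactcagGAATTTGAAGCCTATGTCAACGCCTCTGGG
Ugt1a6b: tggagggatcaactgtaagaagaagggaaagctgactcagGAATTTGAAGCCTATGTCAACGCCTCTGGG
Ugt1a9: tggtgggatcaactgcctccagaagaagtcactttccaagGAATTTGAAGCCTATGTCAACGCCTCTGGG
The exons before the join end at 88212871 for Ugt1a1, 88166903 for Ugt1a5, 88139331 for Ugt1a6a, 88107799 for Ugt1a6b and 88071678 for Ugt1a9. For Ugt1a6a and Ugt1a6b this exon starts after the annotated gene start, so it may not be the first exon. Ugt1a2 has the same 40 bases as Ugt1a5 at its join. Reads of such near-identical stretches could be set aside as not unique or given to the wrong member. Over the longest transcript of Ugt1a6b, shared exons included, 71.5% of 100-base windows are found in another gene. For Ugt1a1 this share is 57.2%.

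Ugt1a1, the main enzyme of bilirubin conjugation, was the highest Ugt1a member (ENSMUSG00000089960, chr1:88211959-88218997). It had 47.2 CPM with selenite, 34.5 with iron, 43.1 with zinc and 9.36 with manganese, 28.8 and 44.2 CPM in untreated LSKO and 17.0 and 14.2 CPM in untreated WT cells. LSKO cells were 2.34-fold higher than WT cells (log2 1.23 ± 0.18 SE, adjusted p = 0.0011), with no overlap, a call lost without WT replicate 2. Selenite, iron and zinc lay within or close to the LSKO pair and passed no test.

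With manganese Ugt1a1 was 3.91-fold lower than in untreated LSKO cells (log2 -1.97 ± 0.25 SE, adjusted p = 0.00012) and below both WT libraries. The gene on the opposite strand gave a value beside it. Gm20528 (chr1:88055393-88218584, minus strand) has 1062 exon bases, all of them under Ugt1a exons, and it overlaps 528 of the 913 bases of the Ugt1a1 first exon (57.8%). Gm20528 had 0 reads with manganese, against 1625 and 2474 reads in untreated LSKO libraries. At a floor of 3 counts per library its count was at least 640-fold lower. Genes with over 99% of such overlap had a median log2 fold change of -9.62 in this library, so the 0 reads cannot be read as a lower transcript level. In the other 7 libraries it carried 36.8 to 110 CPM, more than Ugt1a1 in each. The other 385 bases of the exon (42.2%) lie clear of it. With 1 library, the counting of this library and the manganese treatment cannot be told apart as sources of the Ugt1a1 difference.

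**Figure D3:**
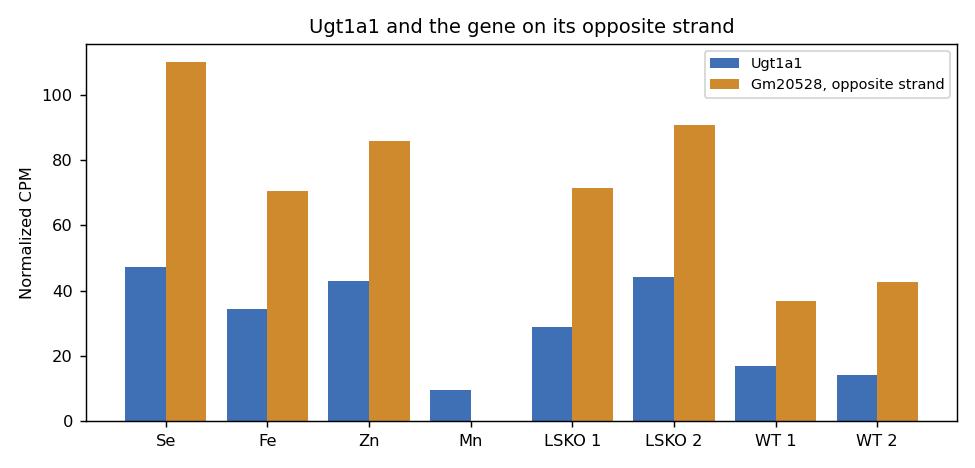
Normalized CPM (y axis) of Ugt1a1 and of Gm20528, the gene annotated on its opposite strand, in each of the 8 libraries. Gm20528 stands above Ugt1a1 everywhere except in the manganese library, where it has 0 reads and Ugt1a1 is at 9.36 CPM.

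Among the phenol-conjugating members, Ugt1a6b had 6.03 CPM with selenite, 5.18 with iron, 4.40 with zinc and 4.24 with manganese, 4.36 and 3.86 CPM in untreated LSKO and 1.32 and 1.83 CPM in WT cells. Every LSKO library, treated or not, stood above both WT libraries. LSKO exceeded WT by 2.63-fold (log2 1.39 ± 0.25 SE, adjusted p = 0.0038), a call lost without WT replicate 1. Its neighbour Ugt1a6a was far lower, at 0.131 to 0.774 CPM, and its log2 fold change of 1.71 between LSKO and WT cells did not pass (adjusted p = 0.080). Ugt1a9 ranged from 2.50 to 5.80 CPM with a log2 difference of 0.62 between LSKO and WT cells (adjusted p = 0.077). Ugt1a5 and Ugt1a2 averaged 1.45 and 0.484 CPM and passed in no comparison. Ugt1a10 and Ugt1a7c had 17 and 47 reads in all, and Ugt1a8 had none.

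Ugt2a3, whose human counterpart conjugates bile acids, was the only Ugt2a member with reads. It had 33.0 CPM with selenite, 16.0 with iron, 21.8 with zinc and 32.3 with manganese, 16.2 and 22.4 CPM in untreated LSKO and 13.1 and 11.0 CPM in WT cells. The selenite and manganese libraries stood clear of both LSKO libraries, with log2 fold changes of 0.77 ± 0.18 (adjusted p = 0.012) and 0.74 ± 0.18 (adjusted p = 0.013). LSKO exceeded WT cells by 0.68 ± 0.16 (adjusted p = 0.017), and selenite exceeded iron and zinc by 0.82 ± 0.18 (adjusted p = 0.010). The LSKO to WT call was lost on leaving out WT replicate 1, WT replicate 2 or LSKO replicate 2. Both selenite calls were lost with the length and GC correction, at 0.32 over LSKO and 0.42 over iron and zinc. Ugt2a1 and Ugt2a2 share almost all exons, and only 1.17% and 5.51% of their bases were counted for them alone, so their lack of reads says little.

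Ugt2b genes, a cluster on chromosome 5, conjugate steroids, bile acids and many drugs. The 4 abundant members behaved alike in one respect, since each was lowest in the WT libraries. Ugt2b36 (ENSMUSG00000070704, chr5:87065927-87092555) had 471 CPM with selenite, 239 with iron, 358 with zinc and 311 with manganese, 251 and 313 CPM in untreated LSKO and 170 and 159 CPM in WT cells. Selenite stood above every other library, by a log2 fold change of 0.74 ± 0.12 over LSKO (adjusted p = 0.0020) and 0.69 ± 0.12 over iron and zinc (adjusted p = 0.0038). With the length and GC correction these fell to 0.20 and 0.20, and both calls were lost. LSKO exceeded WT by 0.78 ± 0.10 (adjusted p = 0.00053).

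Ugt2b5 had 215 CPM with selenite, 150 with iron, 155 with zinc and 135 with manganese, 106 and 132 CPM in untreated LSKO and 65.8 and 61.6 CPM in WT cells. It was 1.81-fold higher with selenite than in LSKO cells (log2 0.86 ± 0.12, adjusted p = 0.00094) and 1.86-fold higher in LSKO than in WT cells (log2 0.90 ± 0.10, adjusted p = 0.00024). The length and GC correction lowered the selenite difference to a log2 of 0.32, and the call was lost. Ugt2b35 differed in that zinc led, at 330 CPM, with 304 CPM with selenite, 265 with iron and 232 with manganese, 193 and 212 CPM in untreated LSKO and 156 and 148 CPM in WT cells. Its log2 fold change over LSKO was 0.70 ± 0.09 with zinc (adjusted p = 0.0012) and 0.59 ± 0.09 with selenite (adjusted p = 0.0018), which was lost without LSKO replicate 1. The length and GC correction also lost the selenite call of Ugt2b35. Between LSKO and WT cells Ugt2b35 differed by 0.41 (adjusted p = 0.0055), under the fold threshold.

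Ugt2b34, the member with the most reads, was the steadiest. It had 450 CPM with selenite, 447 with iron, 478 with zinc and 447 with manganese, 337 and 379 CPM in untreated LSKO and 280 and 285 CPM in WT cells. The 4 metal libraries lay above both LSKO libraries and these above both WT libraries, yet each log2 fold change was under 0.5, from 0.32 to 0.42 for the metals and 0.34 for LSKO over WT, so it was called nowhere. Selenite differed from iron and zinc by -0.04, with a 95% interval of -0.26 to 0.18.

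Ugt2b38 carried the largest change of any member with selenite. It had 10.0 CPM with selenite, 4.73 with iron, 5.91 with zinc and 2.58 with manganese, 1.37 and 2.24 CPM in untreated LSKO and 2.26 and 1.27 CPM in WT cells. Unlike the other Ugt2b genes, it overlapped between LSKO and WT cells (log2 0.03 ± 0.34, adjusted p = 0.97). It was 5.48-fold higher with selenite (log2 2.45 ± 0.34, adjusted p = 0.00086), 2.59-fold higher with iron (log2 1.37 ± 0.37, adjusted p = 0.036) and 3.23-fold higher with zinc (log2 1.69 ± 0.35, adjusted p = 0.019). The iron call was lost on leaving out either WT library and under DESeq2, which also lost the zinc call. Of its 100-base windows 24.2% also occur in another gene, so its reads may be set aside as not unique or given to a near-identical copy. Ugt2b5 is alike in this (24.7%).

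Ugt2b37 and Ugt2b1 followed the WT-low pattern at lower levels. Ugt2b37 had 2.87 CPM with selenite, 1.79 with iron, 2.36 with zinc and 2.33 with manganese, 1.10 and 1.43 CPM in untreated LSKO and 0.451 and 0.349 CPM in WT cells. It passed for selenite (log2 1.16 ± 0.38, adjusted p = 0.043) and for LSKO over WT (log2 1.64 ± 0.40, adjusted p = 0.019). Both calls were lost under DESeq2 and on leaving out WT replicate 1 or LSKO replicate 2, that for selenite also without LSKO replicate 1 and that for LSKO over WT also without WT replicate 2. The selenite call of Ugt2b37 was also lost with the length and GC correction and among genes free of opposite-strand exons. Ugt2b1, whose rat counterpart conjugates bisphenol A, had 26.4 CPM with selenite, 14.9 with iron, 12.6 with zinc and 22.4 with manganese, 14.2 and 20.1 CPM in untreated LSKO and 6.18 and 7.16 CPM in WT cells. LSKO exceeded WT by 2.59-fold for Ugt2b1 (log2 1.37 ± 0.18, adjusted p = 0.00047), and selenite exceeded iron and zinc by 1.92-fold (log2 0.94 ± 0.20, adjusted p = 0.0075). The selenite call over LSKO was near the threshold (log2 0.61 ± 0.19, adjusted p = 0.039) and was lost on leaving out WT replicate 1, WT replicate 2 or LSKO replicate 1, under DESeq2 and among genes free of opposite-strand exons. Both selenite calls of Ugt2b1 were also lost with the length and GC correction.

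The 85 bases before the RefSeq start of 4 Ugt2b genes are shown because they share a 22-base run around the letters AGGTCA, the core of sites bound by nuclear receptors. Capitals mark AGGTCA (GRCm38.p6, minus strand): Ugt2b36 at chr5:87092556-87092640, Ugt2b5 at chr5:87140341-87140425, Ugt2b37 at chr5:87254789-87254873 and Ugt2b38 at chr5:87424204-87424288.
Ugt2b36: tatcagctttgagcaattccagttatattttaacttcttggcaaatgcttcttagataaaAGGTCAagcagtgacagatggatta
Ugt2b5: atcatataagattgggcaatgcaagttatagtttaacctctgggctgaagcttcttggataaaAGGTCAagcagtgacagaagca
Ugt2b37: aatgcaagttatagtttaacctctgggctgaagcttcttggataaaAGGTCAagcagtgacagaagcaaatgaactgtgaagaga
Ugt2b38: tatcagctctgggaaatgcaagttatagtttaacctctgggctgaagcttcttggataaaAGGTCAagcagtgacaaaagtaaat
The common run reads gataaaAGGTCAagcagtgaca. All 4 genes were called higher with selenite, and 3 of them in LSKO over WT cells, whereas Ugt2b38 was not. Of all 7 Ugt2b genes, 6 were called higher with selenite and 4 in LSKO over WT cells. Ugt2b1, for which no AGGTCA was found, was called in both comparisons. A link between these letters and the calls was not tested. AGGTCA on either strand was found in 10 of 39 promoter windows of members (250 bases before to 50 after the start, 36 genes matched in RefSeq), 5 of 7 for Ugt2b, and in 16.3% of all 32851 windows. GCGTG, the core of the site bound by AHR, was found in 6 member windows (32.4% of all windows), and TGACNNNGC, the site bound by NRF2, in 0 (12.4% of all windows). TGACCT, the other strand of AGGTCA, shares its first 4 letters with TGACNNNGC. A match is a description of the window only.

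Ugt3a2, whose human counterpart uses other sugars in place of glucuronic acid, had 22.3 CPM with selenite, 15.6 with iron, 15.6 with zinc and 28.3 with manganese, 13.1 and 19.4 CPM in untreated LSKO and 9.51 and 7.29 CPM in WT cells. Manganese led here, at a log2 fold change of 0.79 ± 0.21 over LSKO (adjusted p = 0.021), and LSKO exceeded WT cells by 0.95 ± 0.19 (adjusted p = 0.0077). Both calls were lost on leaving out either WT library. Ugt3a1 lay between 0.104 and 1.82 CPM and passed in no comparison.

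Of the 4 manganese calls, Ugt1a1 and Sult1a1 have counted bases under an exon of the opposite strand (61 bases in Sult1a1) and Ugt2a3 and Ugt3a2 have none. When only genes free of opposite-strand exons were fitted, 136 of 9900 genes (1.37%) and 0 of 17 members were called with manganese by edgeR, with 3 members at an unadjusted p under 0.05. In that fit Ugt2a3 had a log2 fold change of 0.66 (adjusted p = 0.15) and Ugt3a2 of 0.72 (adjusted p = 0.19).

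Sult1a1, the main phenol sulfotransferase, varied most widely among the abundant members (ENSMUSG00000030711, chr7:126672865-126676432). It had 88.9 CPM with selenite, 17.8 with iron, 54.5 with zinc and 20.8 with manganese, 30.4 and 43.7 CPM in untreated LSKO and 11.5 and 11.0 CPM in WT cells. Selenite and zinc stood above both LSKO libraries, iron and manganese below both but above both WT libraries. Over LSKO the log2 fold change was 1.26 ± 0.17 with selenite (adjusted p = 0.00069), -1.06 ± 0.19 with iron (adjusted p = 0.0066), 0.55 ± 0.17 with zinc (adjusted p = 0.11) and -0.84 ± 0.19 with manganese (adjusted p = 0.0079). LSKO exceeded WT by 3.31-fold (log2 1.73 ± 0.16, adjusted p = 5.0e-05), and selenite exceeded iron and zinc by 2.85-fold (log2 1.51 ± 0.17, adjusted p = 0.00092). With WT as the control, the iron and manganese differences turned positive, at 0.67 and 0.89.

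Sult1d1, which in mice sulfates catecholamines, shared the low WT level. It had 83.0 CPM with selenite, 37.4 with iron, 59.7 with zinc and 51.4 with manganese, 52.6 and 83.2 CPM in untreated LSKO and 19.5 and 17.5 CPM in WT cells. LSKO exceeded WT by 3.67-fold (log2 1.88 ± 0.18, adjusted p = 7.2e-05), the largest difference of any tested member in that comparison. Iron lay below both LSKO libraries (log2 -0.86 ± 0.22, adjusted p = 0.029), but this call was lost on leaving out either WT library and under DESeq2, and with WT as the control the difference was 1.01. Selenite matched the higher LSKO library, and its log2 fold change over LSKO of 0.29 (adjusted p = 0.32) did not pass, while that over iron and zinc of 0.81 ± 0.20 did (adjusted p = 0.016), though not under DESeq2 or without either WT library. The length and GC correction also lost the call over iron and zinc.

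Sult1b1, which sulfates thyroid hormones, and Sult1e1, which sulfates oestrogens, were both lowest with iron. Sult1b1 had 4.89 CPM with selenite, 1.20 with iron, 2.93 with zinc and 3.35 with manganese, 2.60 and 3.53 CPM in untreated LSKO and 1.84 and 1.96 CPM in WT cells. Sult1e1 had 3.61 CPM with selenite, 0.897 with iron, 2.32 with zinc and 4.15 with manganese, 1.72 and 2.87 CPM in untreated LSKO and 1.32 and 1.66 CPM in WT cells. They were the only 2 tested members whose lowest level was in the iron library. Sult1b1 was 2.57-fold lower with iron than in LSKO cells (log2 -1.36 ± 0.37, adjusted p = 0.038), and Sult1e1 had almost the same log2 fold change without passing (-1.36 ± 0.46, adjusted p = 0.080). Selenite over iron and zinc gave 1.38 ± 0.31 for Sult1b1 (adjusted p = 0.011) and 1.32 ± 0.39 for Sult1e1 (adjusted p = 0.033). DESeq2 lost both of these calls, as did the length and GC correction, and that of Sult1e1 was also lost without either WT library. The iron call of Sult1b1 was lost on leaving out WT replicate 1, WT replicate 2 or LSKO replicate 2 and under DESeq2. Sult1c2 ranged from 1.75 to 3.26 CPM and passed nowhere, and Sult1c1 had no reads.

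With iron, 4 of 5 endothelial, 2 of 5 stellate cell and 2 of 3 tested bile duct markers were lower than in untreated LSKO cells. Of 5 tested Kupffer cell markers 2 were lower, although their summed level was higher. Summed endothelial markers were 76.2 CPM with iron, against 138 and 111 CPM in LSKO libraries, and stellate cell markers 4.24 CPM with iron, against 17.1 and 13.2 CPM. In WT libraries these sums were 168 and 172 CPM and 23.0 and 23.1 CPM, with 1 of 5 markers of each type lower in LSKO than in WT cells. Summed Kupffer cell markers were 271 CPM with selenite, 287 with iron, 246 with zinc and 434 with manganese, 209 and 241 CPM in untreated LSKO and 170 and 157 CPM in WT cells. Bile duct markers summed to 25.9 to 88.1 CPM and enterocyte markers to 7.67 to 14.9 CPM. Timd4 (Kupffer cells), Krt7 (bile duct), Cdx2 and Slc5a1 (both enterocytes) had 0 reads with iron, and no marker outside these 4 was at 0 in any library. The hepatocyte markers gave 0 of 7 calls with iron by edgeR (median log2 fold change -0.10). The part of these cell types in the Sult1 levels was not tested.

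**Figure D4:**
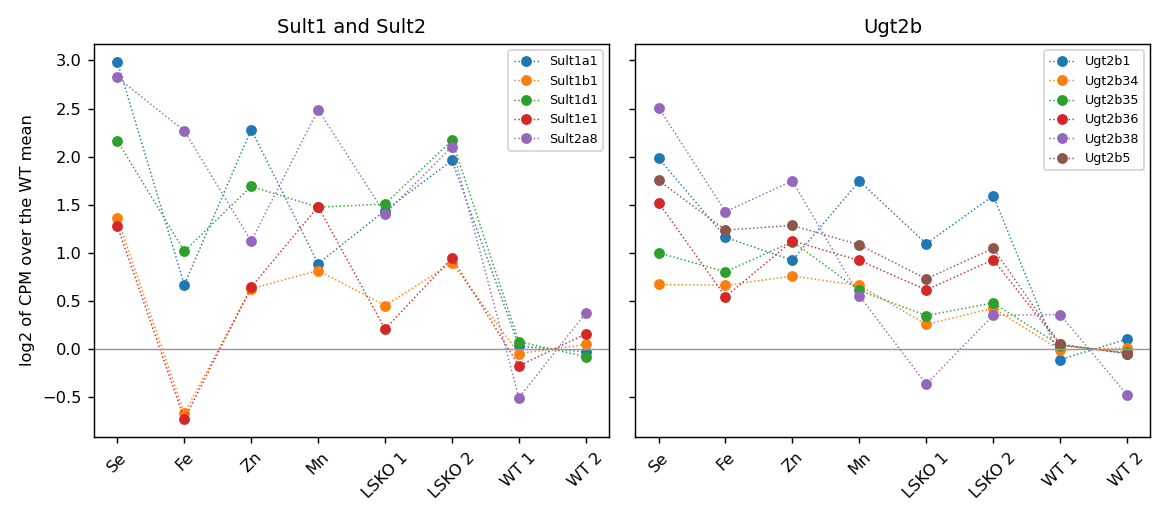
Log2 of each library's CPM over the mean of the WT libraries (y axis) for 5 SULTs and 6 Ugt2b genes, by library, with dotted lines joining 1 gene's points. Sult1a1 is highest with selenite and near 0.67 with iron, and among the LSKO libraries, treated or not, Sult1b1 and Sult1e1 lie below 0 with iron only.

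Sult2a genes encode sulfotransferases for bile acids and dehydroepiandrosterone. Sult2a8, which in mice sulfates bile acids, was the only Sult2 member tested and held 10.5 CPM with selenite, 7.13 with iron, 3.22 with zinc and 8.30 with manganese, 3.92 and 6.36 CPM in untreated LSKO and 1.04 and 1.92 CPM in WT cells. It passed for selenite over LSKO (log2 1.01 ± 0.31, adjusted p = 0.037), for selenite over iron and zinc (log2 1.13 ± 0.32, adjusted p = 0.028) and for LSKO over WT (log2 1.83 ± 0.32, adjusted p = 0.0032). DESeq2 lost both selenite calls, as did the length and GC correction. Among genes free of opposite-strand exons the one over LSKO was lost. The one over LSKO was also lost on leaving out WT replicate 1, WT replicate 2 or LSKO replicate 1, and that for LSKO over WT on leaving out WT replicate 1. Sult2a1 to Sult2a7 had 0 to 22 reads each over all libraries, Sult2b1 had 41, Sult3a1 had 2 and Sult3a2 had none.

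Sult4a1, best known from neurons, ran against the rest. It had 0.296 CPM with selenite, 0.897 with iron, 0.122 with zinc and 1.14 with manganese, 1.32 and 0.773 CPM in untreated LSKO and 2.39 and 2.18 CPM in WT cells. Zinc was lower than LSKO (log2 -3.03 ± 0.74, adjusted p = 0.043) on 3 reads, against 30 and 21 reads in LSKO libraries, a ratio of 0.120 with an exact 95% counting interval of 0.0239 to 0.370 that covers counting error only. The call was lost under DESeq2, with the length and GC correction and on leaving out WT replicate 1, WT replicate 2 or LSKO replicate 1. LSKO over WT gave -1.14 (adjusted p = 0.062) and selenite over LSKO -1.79 (adjusted p = 0.066), neither of which passed. The LSKO to WT difference did pass when the 4 untreated libraries were fitted alone (log2 -1.15, adjusted p = 0.046), with the replicate block (log2 -1.16, adjusted p = 0.035) and without LSKO replicate 1 (log2 -1.53, adjusted p = 0.047), and the selenite difference passed without LSKO replicate 2 (log2 -2.17, adjusted p = 0.032). Sult5a1 lay between 0.382 and 1.28 CPM without a call, and Sult6b1 and Sult6b2 had 27 and 32 reads.

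**Figure D5:**
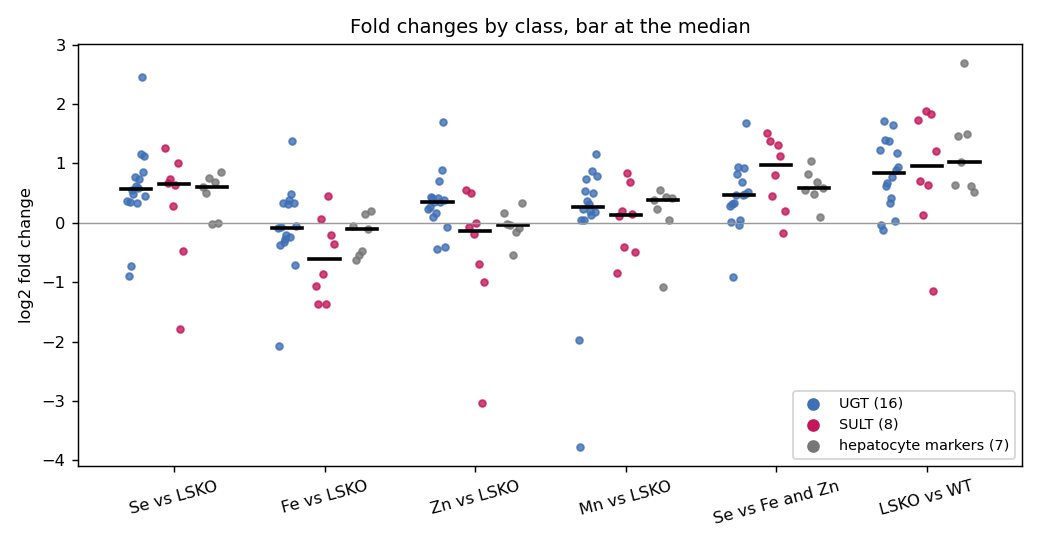
Log2 fold changes (y axis) of the 16 tested UGTs, 8 tested SULTs and 7 hepatocyte markers in the 6 comparisons, each point 1 gene and each bar a median. In LSKO over WT cells and in both selenite comparisons all 3 medians are above 0.

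UGTs and SULTs depend on other genes for their sugar and sulfate donors. Of 8 genes for UDP-glucuronate supply and conjugate release, 2 were higher in LSKO than in WT cells (Ugp2, which makes UDP-glucose, log2 0.83, and Slc35d1, a carrier of UDP-glucuronate, log2 0.55), 1 was higher with selenite (Ugp2, 0.60), 1 lower with iron (Abcg2, an efflux pump, -0.64), 1 higher with manganese (Abcc2, which exports conjugates into bile, 0.56) and 0 changed with zinc. Of 10 genes for sulfate and PAPS supply, 2 were higher in LSKO than in WT cells, namely Cdo1, which starts the breakdown of cysteine towards sulfate (log2 1.89), and Slc26a1, a sulfate transporter (log2 0.91). Cdo1 was higher with selenite (log2 0.77), Papss2, a PAPS synthase, was lower with iron (log2 -0.54), and no gene of that list passed with zinc or manganese. Of all tested genes, 6.74% were higher in LSKO than in WT cells and 7.89% higher with selenite. With iron 4.89% were lower, and with manganese 2.09% were higher. Whether the counts of these lists differ from those shares was not tested.

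Among 14 regulators of conjugation, 5 were higher in LSKO than in WT cells, led by Nr1i2, the xenobiotic receptor PXR (log2 1.25), Ppara (0.72) and Nr1h4, the bile acid receptor FXR (0.63). With iron Nfe2l2 (-0.56) and Nr1h4 (-0.54) were lower, and with zinc none passed. With manganese Nr1i3, Nfe2l2 and Nr1h4 were lower (log2 -5.15, -0.66 and -0.58), and 74.9% of the exon bases of Nr1i3, which encodes the receptor CAR, lie under an exon of the opposite strand. Of 10 tested receptor target genes, 4 were higher in LSKO than in WT cells, among them Cyp3a11 (1.69), Cyp4a10 (1.58) and Cyp2b10 (1.44). With selenite Nqo1 (1.05) and Cyp3a11 (0.72) were higher and Cyp4a14 lower (-0.83). Of 7 tested male-biased liver genes, 6 were higher in LSKO than in WT cells, led by Cyp4a12a (2.04), Hsd3b5 (1.97) and Cyp2d9 (1.60), and 3 were higher with selenite. Of 3 tested female-biased genes and 4 tested Y-linked genes, none was called in LSKO over WT cells. Beside these counts stand the shares of all tested genes, 6.74% higher in LSKO than in WT cells, 4.89% lower with iron and 15.1% lower with manganese. With selenite the shares were 7.89% higher and 9.67% lower. Whether the lists differ from them was not tested.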

How the data were processed

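RNA-seq of 8 libraries was analysed from the raw read counts per gene that the authors deposited. The submitters' processing notes name Trimmomatic, HISAT2, HTSeq, DESeq2 and GRCm38. For annotation release and strand setting, the sources used here give nothing. All 55450 identifiers matched GENCODE M21. Summary rows of unassigned reads stayed out of library sizes and tests. The 15468 genes whose counts summed to 80 or more were fitted with edgeR 4.0.16 (R 4.3.3) over 6 groups, using TMM factors and its quasi-likelihood test, and p was adjusted over them by Benjamini-Hochberg. Calls had to pass an adjusted p of 0.05 and a log2 fold change of 0.5 in size. The WT and LSKO pairs give the spread for single-library groups (2 residual and 8.53 prior degrees of freedom). SE is the size of the log2 fold change over the square root of F. CPM are TMM-normalized.

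Members with the highest level of a subfamily or any call are given by library, and up to 3 called genes of each other list by name. Members and lists (UDP-glucuronate supply and conjugate release, sulfate and PAPS supply, regulators, receptor targets, sex-biased and sex chromosome genes, cell type markers) were chosen with earlier results of these data known. Alternatives were DESeq2 1.42.0, median-ratio size factors, other filters, each replicate or the manganese library left out, a length and GC correction, genes free of opposite-strand exons, WT as the control, the 4 untreated libraries alone with or without a replicate block, and no fold threshold. Promoter windows are from RefSeq (GRCm38.p6). Results for 1 regulator are not reported here.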

Additional observations from a re-analysis of the deposited data

How the results depend on the processing

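Median-ratio size factors, filterByExpr, no filter and no fold threshold kept every count of called members within 1.5 times, and so did leaving out the manganese library for the 5 comparisons without it. DESeq2 gave 1 call with iron, 1 with zinc and 4 for selenite over iron and zinc. Over the fits without 1 WT or LSKO replicate, calls numbered 3 to 8 with manganese, 1 to 6 with iron, 5 to 12 with selenite, 2 to 8 with zinc, 6 to 13 for LSKO over WT and 7 to 10 for selenite over iron and zinc. Where this left a pair with 1 library, it was assumed to vary like the others. The length and GC correction gave 2 calls with selenite and 1 for selenite over iron and zinc. Genes free of opposite-strand exons gave 0 with manganese (1.37% of all 9900 such genes called) and 5 with selenite (18.5%). In that fit 17 members were tested by construction. Setting aside 5 members whose counted bases lie under the opposite strand, a choice made after seeing the data, gave 2 with manganese. With WT as the control, 18 members were called with manganese (28.5% of all genes), 13 with iron (10.6%), 19 with selenite (26.7%) and 15 with zinc (9.70%), and 3 values reversed: Sult1a1 to 0.89 with manganese, Sult1a1 to 0.67 with iron and Sult1d1 to 1.01 with iron. The cause of these shifts was not tested. The replicate block over the 4 untreated libraries gave 12 calls, 11 higher and 1 lower, as did the fit of those libraries without it. Same-numbered libraries did not deviate together (correlation -0.07). This correlation cannot show whether they share a day or a batch, which the labels do not give. Of 498 alternative values for 39 calls, 424 kept direction and call, 71 lost the call and 3 reversed. Each metal had 1 library, and members under about 10 reads per library gave no test.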
